A study of Homo sapiens with 2 samples.

Results

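The genes described here are 8 genes of chromatin architecture, 5 for high mobility group (HMG) proteins (HMGB1, HMGB2, HMGN1, HMGN2 and HMGA1) and 3 for variant histones (H2AFZ, H3F3A and H3F3B), taken as a fixed list of Ensembl gene IDs. Binding of Musashi-2 (MSI2), an RNA-binding protein, was mapped by CLIP-seq in the established human leukaemia line NB4, which derives from acute promyelocytic leukaemia. In this assay ultraviolet light joins proteins to the RNA they touch, and an antibody then recovers one protein with its RNA fragments for sequencing. The series has 1 group of 2 libraries, replicates 1 and 2, each from the same number of NB4 cells, grown in serum-supplemented RPMI, irradiated on ice at 400 mJ per square centimetre and recovered with an anti-MSI2 antibody from Abcam. The cells carried no transgene, deletion or drug treatment that the labels name, and no control antibody, input or MSI2-depleted library was analysed here. The 8 genes held 21 of the 25920 peaks of replicate 1 and 28 of the 25243 peaks of replicate 2. A peak was found for all 8 genes in one replicate or the other, and for 7 genes in each replicate. Of the 8801 gene IDs with a peak in either replicate, 7252 had one in replicate 1 and 7101 in replicate 2. The genes were chosen with earlier results of these data known, so these counts are a description only.

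HMG proteins and variant histones set how DNA is packed in the nucleus. HMGB proteins bend DNA through HMG boxes, HMGN proteins bind nucleosomes, and HMGA1 binds AT-rich DNA through AT hooks. H2AFZ encodes the histone variant H2A.Z, and H3F3A and H3F3B are separate genes for the same variant histone, H3.3. Unlike the replication-dependent histone mRNAs, which end in a stem-loop, mRNAs of these variant histones are polyadenylated. Musashi proteins are known as regulators of mRNA translation and stability that bind short UAG-containing sites, often in 3' untranslated regions. The peaks are positions on hg19. The sequence and exon positions of that build were not used here, so no site sequence is printed and no peak is placed in an exon, an intron or an untranslated region.

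Each peak carries a tally, the whole number at the end of its deposited name. It is 3 or more in every peak and behaves like a number of reads, although no header or label explains it. Each peak's p-value is the authors' own. The summed tally of all peaks was 155598 in replicate 1 and 133644 in replicate 2, and the median tally of all peaks was 4 in both. The libraries' read totals are not given in the files, so these sums describe what was called as peaks and not sequencing depth. The labels do not say that the replicates came from separate cultures, so differences between them may be technical. A peak is called shared when it has a minimum of 1 nt in common with a same-strand peak of the other replicate. All intervals below are 95% intervals and cover counting error only.

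MSI2 peaks on these genes were dominated by HMGB2, which held 175 of the genes' summed tally of 365 in replicate 1 (47.9%) and 158 of 342 in replicate 2 (46.2%). H3F3B and HMGB1 followed in replicate 1, with summed tallies of 77 and 64. In replicate 2 H3F3B had 64, HMGA1 51 and HMGB1 35. HMGN1 had 23 and 19, and H2AFZ had 8 and 12. HMGN2 and H3F3A each had a single peak with the lowest tally, 3, in 1 replicate. The 8 genes together held 0.235% of all tallies in replicate 1, with a Wilson interval of 0.212% to 0.260%, and 0.256% in replicate 2, with one of 0.230% to 0.284%. They held 0.0810% and 0.111% of the peaks. Their mean tally per peak was 17.4 and 12.2, against 6.003 and 5.29 over all peaks. The means include the high tallies of HMGB2, and the median was 8 in both replicates, against 4 over all peaks.

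**Figure D1:**
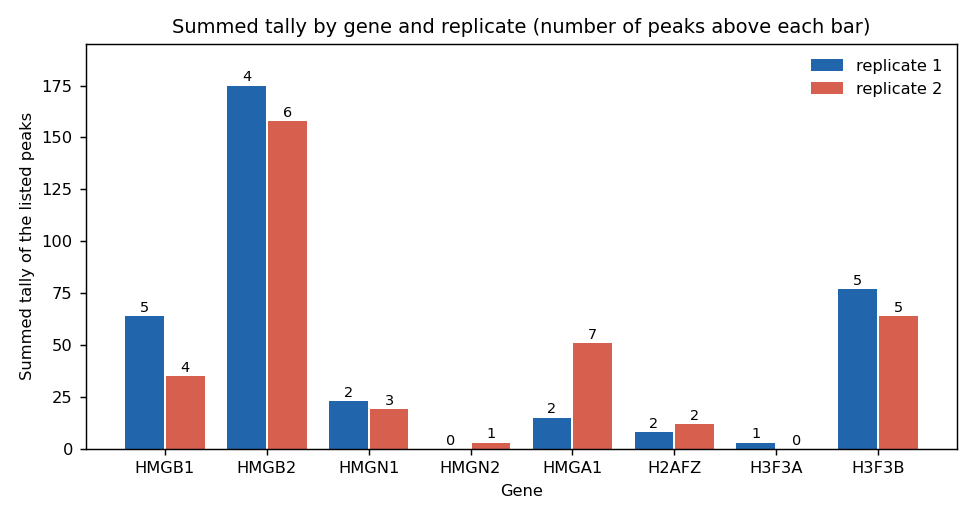
Summed tally of the listed peaks (vertical axis) for each of the 8 genes (horizontal axis) in replicate 1 (blue) and replicate 2 (red), with the number of peaks above each bar. HMGB2 stands highest in both replicates, at 175 and 158, and HMGA1 is the gene whose bars differ most in proportion among those found in both, at 15 and 51.

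Summed tallies depend on how much of a gene was called, so they were also set per length of called peak. No RNA level of these genes was used here, so neither scale separates MSI2 binding from the amount of RNA. HMGB2 had 53.2 tallies per 100 nt of peak in replicate 1 and 40.9 in replicate 2. H3F3B had 31.4 and 22.1 per 100 nt, and HMGB1 had 25.1 and 21.2. HMGA1 had 14.2 and 19.9, HMGN1 13.5 and 11.4, and H2AFZ 10.3 and 9.92. The single peaks of H3F3A and HMGN2 had 8.33 and 11.5 per 100 nt in the replicate that listed them. On this scale HMGB2, H3F3B and HMGB1 held the top 3 places in the same order in both replicates. The lower value of HMGB2, 40.9, exceeded the higher value of every other gene. The ranges of H3F3B and HMGB1 over the replicates overlapped, so their order was not clear of the replicate spread, and the value of HMGN2 fell inside the range of HMGN1.

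HMGB2, an HMG-box protein abundant in dividing cells, carried the most compact strong signal of the 8 genes. All of its peaks (ENSG00000164104.7) lay on the minus strand of chromosome 4. In replicate 1 the 4 peaks filled positions 174252889 to 174253284, a stretch of 396 nt with gaps of 12 to 35 nt. They are given from the 3'-most listed end upstream. The first lay at 174252889 to 174252968 with a tally of 38 and the next at 174252989 to 174253069 with 52. The others lay at 174253082 to 174253131 with 24 and at 174253167 to 174253284 with 61. Replicate 2 had 4 peaks over the same stretch, at 174252892 to 174252973 with a tally of 37, 174252985 to 174253062 with 39, 174253082 to 174253152 with 27, and 174253153 to 174253258 with 39. The peaks matched one to one, and the centres of their short inner intervals, as deposited, lay 1, 0, 9 and 1 nt apart. The weakest of the 4 was the same peak in both replicates, the one starting at 174253082.

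Only replicate 2 listed HMGB2 peaks further upstream, at 174253972 to 174253983 with a tally of 7 and at 174254106 to 174254142 with 9. These lay 687 and 821 nt from the nearest replicate 1 peak of the gene, and the run of 4 peaks held 89.9% of the gene's tally in that replicate. By summed tally HMGB2 ranked 39 of 7252 gene IDs in replicate 1 and 46 of 7101 in replicate 2. When peaks of a gene lying within 50 nt were merged, the HMGB2 run became a single region with a tally of 175 in replicate 1, ranking 2 of 23876 merged regions, and of 142 in replicate 2, ranking 3 of 22315. Of the 39 gene IDs with a summed tally of at least 175 in replicate 1, HMGB2 alone had all its peaks within a span as short as 396 nt, and the median span of the 39 was 12048 nt. In replicate 2, where the upstream peaks widened its span to 1251 nt, 3 of the 48 gene IDs with a summed tally of at least 158 had a span that short, HMGB2 among them.

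HMGB1, the closest relative of HMGB2 among the members and also an alarmin when released from cells, had weaker peaks over a longer listed span. Its peaks (ENSG00000189403.10) lay on the minus strand of chromosome 13. The strongest pair of peaks lay at the 3'-most listed end in both replicates. The first ran from 31034184 to 31034256 in replicate 1, with a tally of 24, and from 31034184 to 31034254 in replicate 2, with 17. The next ran from 31034290 to 31034351 with a tally of 19 and from 31034300 to 31034347 with 10. The inner intervals of both pairs were centred 2 nt apart. These peaks held 67.2% of the gene's tally in replicate 1 and 77.1% in replicate 2.

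A weaker site of HMGB1 also recurred at the 5'-most end of its listed peaks, with its replicate 1 midpoint 3257.5 nt upstream of the 3'-most listed end. It was 1 peak in replicate 1, at 31037416 to 31037466 with a tally of 6, and 2 peaks touching end to end in replicate 2, at 31037408 to 31037418 and 31037419 to 31037453, each with a tally of 4. Between these sites replicate 1 alone listed peaks at 31034729 to 31034746, with a tally of 8, and at 31035015 to 31035065, with 7. They lay 381 and 667 nt from the nearest replicate 2 peak of HMGB1. In replicate 2 the names of the HMGB1 peaks skip the running number 2, which falls in this interval. Skipped numbers occurred under 22.9% of gene IDs in replicate 1 and 23.6% in replicate 2, and under no other of the 8 genes in either replicate. No label or header says what a skipped number stands for.

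**Figure D2:**
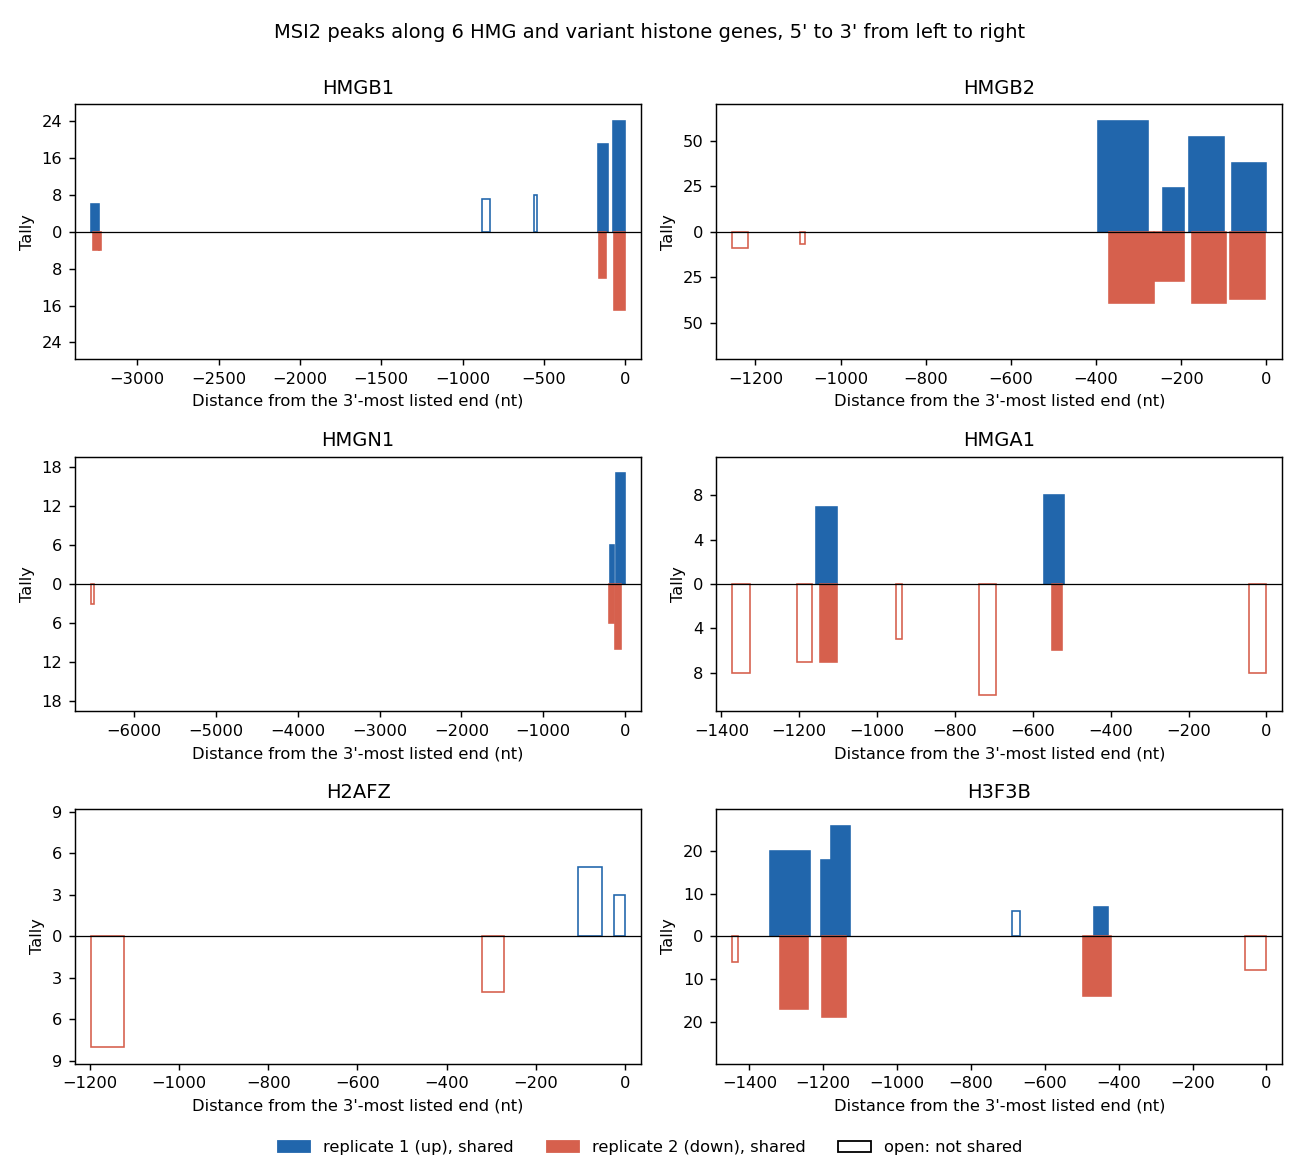
Peaks of the 6 genes found in both replicates, with distance in nt from the 3'-most listed end of the gene on the horizontal axis (5' to the left) and tally on the vertical axis, replicate 1 upward in blue and replicate 2 downward in red; filled bars are shared peaks and open bars are not. The run of 4 HMGB2 peaks, the 3' pair of HMGB1 and the 3' pair of HMGN1 mirror each other across the axis, H2AFZ has open bars alone, and HMGA1 has 5 open bars in replicate 2.

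HMGN1, a nucleosome-binding protein, had 2 shared peaks next to each other and HMGN2, its paralog, had none. The HMGN1 peaks (ENSG00000205581.6, minus strand of chromosome 21) lay at 40714403 to 40714519 with a tally of 17 and at 40714537 to 40714589 with 6 in replicate 1. In replicate 2 they lay at 40714450 to 40714524 with a tally of 10 and at 40714537 to 40714597 with 6. In replicate 1 the shared peaks were the only peaks of the gene, and in replicate 2 they were its 3'-most. One more peak, at 40720897 to 40720926 with a tally of 3, was in replicate 2 alone and lay 6307 nt from the nearest replicate 1 peak. HMGN2 (ENSG00000198830.6, plus strand of chromosome 1) had 1 peak, at 26799073 to 26799098 in replicate 2, with a tally of 3. The authors' p of this peak was 0.0323, larger than that of 81.9% of the 11435 peaks with a tally of 3 in the list.

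HMGA1, the AT-hook protein, was the gene that differed most between the libraries. Its peaks (ENSG00000137309.15, plus strand of chromosome 6) numbered 2 in replicate 1, at 34212822 to 34212876 with a tally of 7 and at 34213408 to 34213458 with 8. Both were found again in replicate 2, at 34212832 to 34212875 with a tally of 7 and at 34213428 to 34213452 with 6, and their inner intervals were centred 2 and 3 nt apart. Replicate 2 added 5 peaks with tallies of 5 to 10. The strongest of these, at 34213241 to 34213283 with a tally of 10, lay 124 nt from the nearest replicate 1 peak, and one at 34212773 to 34212810 lay only 11 nt from one. The others lay 151 to 474 nt away.

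The share of tallies under HMGA1 was therefore higher in replicate 2, with a log2 ratio of replicate 2 over replicate 1 of 1.98 (exact interval 1.13 to 2.92). Over the 5552 gene IDs with peaks in both replicates the ratio had a median of -0.04 and an SD of 1.02, and 96.6% of them lay below HMGA1. The exact interval lay above 0 for 11.0% of these gene IDs and below 0 for 11.6%. Of the 1181 gene IDs with at least as many tallies over both replicates as HMGA1, 14 had a higher ratio. The difference lay in peaks listed in replicate 2 alone. The called length was 106 nt in replicate 1 and 256 nt in replicate 2, and the 2 shared peaks summed to 15 and 13. The other 5 peaks held 74.5% of the gene's tally in replicate 2. Each replicate is a single library, so this difference is one between libraries and its repeatability is unknown.

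The other genes found in both replicates had smaller differences between the libraries. HMGB1 was lower in replicate 2, with a log2 ratio of -0.65 (-1.29 to -0.03) and called lengths of 255 and 165 nt. Among the gene IDs with peaks in both replicates 24.4% had a lower ratio, so HMGB1 lay within their usual spread. The ratio was 0.07 (-0.25 to 0.39) for HMGB2, -0.05 (-0.55 to 0.45) for H3F3B and -0.06 (-1.01 to 0.88) for HMGN1. For H2AFZ it was 0.80 (-0.61 to 2.3), an interval too wide at 8 and 12 tallies to show a direction. The intervals of these last 4 genes include 0.

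H2AFZ had peaks in both libraries, and none was shared. Its peaks (ENSG00000164032.7) lay on the minus strand of chromosome 4. In replicate 1 they ran from 100869324 to 100869347 with a tally of 3 and from 100869375 to 100869428 with a tally of 5. Replicate 2 had a peak at 100869596 to 100869643 with a tally of 4 and another at 100870448 to 100870520 with 8. The closest peaks of different replicates were 167 nt apart. Of the gene IDs with peaks in both replicates, 71.9% had at least 1 shared peak, but this covers genes of all tallies. Of all peaks with a tally of 3 to 5, 19.7% were shared in replicate 1 and 24.6% in replicate 2. With a tally of 6 to 9, 64.9% were shared in replicate 2.

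The genes for histone H3.3 differed from each other in their listed peaks in the same libraries. H3F3B (ENSG00000132475.4, minus strand of chromosome 17) had 5 peaks in each replicate, and H3F3A (ENSG00000163041.5, plus strand of chromosome 1) had 1 peak, at 226259205 to 226259240 in replicate 1, with a tally of 3. The lists hold only peaks with a tally of 3 or more and a p under 0.05, so a gene without a listed peak cannot be read as having no reads. At H3F3B the strongest peaks lay toward the 5' end of its listed span, while those of HMGB1 lay at the 3' end of its own. HMGN1 is left out of this contrast. Its span in replicate 1 was only 187 nt, and a single replicate 2 peak with a tally of 3 sets its 5' end. Replicate 1 had a peak at 73774347 to 73774398 with a tally of 26 that touched one at 73774399 to 73774425 with a tally of 18. Replicate 2 had a single peak over both, at 73774358 to 73774422 with a tally of 19. Just upstream, a peak at 73774456 to 73774563 had a tally of 20 in replicate 1, and one at 73774460 to 73774535 had 17 in replicate 2.

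A further H3F3B site recurred nearer the 3' end, at 73773648 to 73773684 with a tally of 7 in replicate 1 and at 73773639 to 73773714 with 14 in replicate 2. Its log2 ratio of replicate 2 over replicate 1, 1.22, had an interval of -0.19 to 2.77. Replicate 1 alone had a peak at 73773886 to 73773906 with a tally of 6. Replicate 2 alone had peaks at 73773219 to 73773277, with a tally of 8, and at 73774651 to 73774664, with 6. The midpoints of the H3F3B peaks with a tally of 17 or more lay 1154 to 1291 nt upstream of the 3'-most listed end. For HMGB2, peaks with a tally of 24 or more lay 40 to 337 nt from that end, and the strongest in replicate 1 was the 5'-most of the gene in that list.

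The share of these genes' peaks that recurred was higher than that of all peaks in both replicates. It was clear of counting error in replicate 1 alone, and in neither replicate once neighbouring peaks were merged. Shared peaks made up 15 of 21 in replicate 1, or 71.4% (Wilson interval 50.04% to 86.2%), against 35.7% of all peaks. In replicate 2, 15 of 28 were shared, or 53.6% (35.8% to 70.5%), against 37.3% of all peaks. Without HMGB2 the shares were 64.7% and 50%. With peaks of a gene within 50 nt merged, 8 of 13 were shared in replicate 1, or 61.5% (35.5% to 82.3%), against 36.2% of all merged peaks. In replicate 2 it was 8 of 20, or 40% (21.9% to 61.3%), against 39.1%. Of the 8 genes, 6 had peaks in both replicates and 5 had a shared peak, against 63.1% and 45.5% of the 8801 gene IDs with a peak in either. Peaks of 1 gene are not independent, so the Wilson intervals are too narrow as limits on recurrence.

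Set beside all peaks in the same range of tallies, the share of these genes had an interval that included the share of all peaks in each range but 1, and most ranges held few of their peaks. With a tally of 10 or more, 10 of 10 peaks were shared in replicate 1, against 87.1% of all such peaks, and 10 of 11 in replicate 2, against 89.4%. The peak not shared was the HMGA1 peak with a tally of 10. With a tally of 6 to 9, 5 of 8 were shared in replicate 1, against 54.9%. In replicate 2, 3 of 11 were shared, or 27.3% (9.75% to 56.6%), against 64.9% of all such peaks (63.5% to 66.4%). With a tally of 3 to 5, 0 of 3 were shared in replicate 1, against 19.7%, and 2 of 6 in replicate 2, against 24.6%. Shared peaks of the 8 genes had a median tally of 19 in replicate 1 and 14 in replicate 2, and the other peaks had medians of 5.5 and 7.

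**Figure D3:**
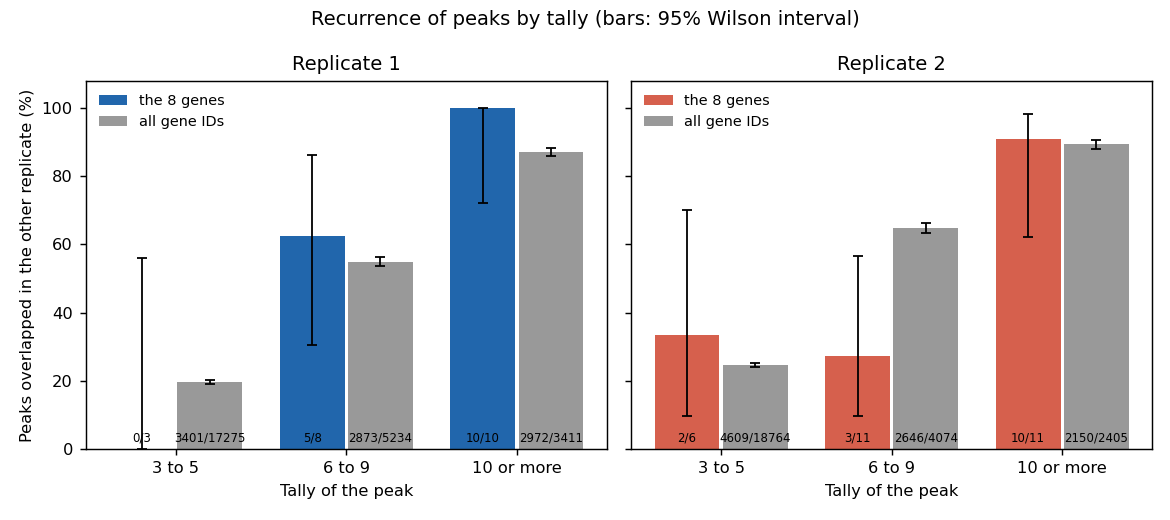
Percentage of peaks overlapped by a peak of the other replicate (vertical axis) by tally of the peak (horizontal axis) for the 8 genes (coloured) and all gene IDs (grey), with 95% Wilson intervals and the counts at the foot of each bar. The share rises with tally, from 19.7% to 87.1% over all replicate 1 peaks, and the coloured intervals reach the grey bars except at tallies of 6 to 9 in replicate 2, where 3 of 11 peaks were shared.

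Overlapping peaks of these genes lay about as close in position as those of all gene IDs. Only peaks that overlap enter this comparison, which by itself limits how far apart their centres can lie. The 15 shared peaks of replicate 1 formed 16 overlapping pairs, since an HMGB1 peak met 2 peaks of replicate 2, and 2 H3F3B peaks met the same one. The median distance between the centres of the inner intervals was 5 nt (range 0 to 36.5), and 12 of the 16 pairs were within 10 nt. Over all 12529 overlapping pairs the median was 7 nt, and 68.2% were within 10 nt. The median overlap was 49 nt for these genes and 36 nt over all pairs. Peaks of the 8 genes were also wider, with medians of 52 and 47 nt against 42 and 39 nt over all peaks, and a wider peak is more easily overlapped.

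To compare tallies where a replicate split a site, overlapping peaks were joined into 14 sites and their tallies summed, on the assumption that touching peaks do not count the same reads. After library sums were taken into account, 6 sites had the higher share in replicate 2 and 8 the lower. The log2 ratios ran from -0.99 at the H3F3B site at 73774347 to 73774425, with tallies of 44 and 19 (interval -1.85 to -0.19), to 1.22 at the H3F3B site at 73773639 to 73773714, with 7 and 14. The first of these was the 1 site whose interval left out 0, and there replicate 1 had 2 touching peaks against 1 in replicate 2. Paired one at a time, those peaks gave -0.23 and 0.30, with intervals that included 0. In HMGB2 the ratios of the 4 sites ran from -0.43 to 0.39. In HMGB1 the 3' pair of sites was lower in replicate 2, at -0.28 and -0.71, and the 5' site, with tallies of 6 and 8, was at 0.63, all with intervals that included 0. Small tallies left wide intervals, such as -1.52 to 1.96 for the HMGA1 site with tallies of 7 and 7, so an interval that includes 0 does not show equal tallies.

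**Figure D4:**
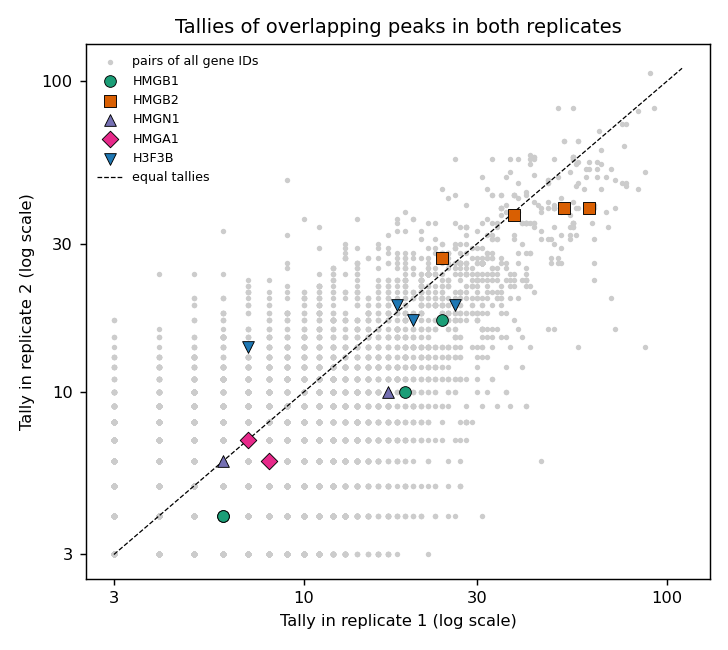
Tally in replicate 1 (horizontal axis, log scale) against tally in replicate 2 (vertical axis, log scale) for each overlapping pair of peaks, with pairs of all gene IDs in grey, those of 5 genes in colour and a dashed line at equal tallies. The 4 HMGB2 pairs, with tallies of 24 to 61 and 27 to 39, lie at the upper end of the grey cloud. The HMGA1 pairs, at 7 and 7 and at 8 and 6, lie further down.

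The authors' p did not rank these peaks as the tally did. Peaks with equal tallies had different p-values in different genes. In replicate 1 a tally of 24 came with a p of 6.43e-17 in HMGB1 and 1.78e-11 in HMGB2, and the 41 peaks with that tally ran from 2.39e-24 to 0.000129. The H3F3B peak with a tally of 18 had the smallest p, 1.49e-15, of the 107 peaks with that tally. The H3F3B peak with a tally of 26 had a p of 9.23e-23 and ranked 110 in the list by p, but 316 by tally. In contrast, all 9 HMGA1 peaks of both replicates had a larger p than 79.7% to 96.9% of the peaks of equal tally in their list. The strongest HMGB2 peak, with a tally of 61, had a p of 1.58e-30 and ranked 35 by p and 23 by tally in replicate 1. Since neither labels nor headers say how the p was computed, peaks of different genes were compared by tally and not by p. Stricter lists, tried as an alternative, were cut by p.

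The gene IDs of these peaks were unambiguous within the lists. No interval of the 8 genes was also listed under another gene ID, and no peak of another gene ID, on either strand, lay within 5000 nt of any of the 8 genes' peaks. Reads can still be shared with processed copies elsewhere in the genome. RefSeq's gene table for GRCh38.p14 holds 50 pseudogenes named after HMGB1, 48 after HMGN2, 38 after HMGN1, 8 after HMGA1, 7 each after H2AFZ and H3F3A, 2 after H3F3B and 1 after HMGB2. The treatment of reads matching several places is not stated in the sources used here, so values of HMGB1, HMGN1 and HMGN2 in particular are uncertain. The genes with the fewest named copies, HMGB2 and H3F3B, had the highest tallies per length, and HMGB1, with the most, had the next highest after them. The part of such copies in these values was not tested. Without a control library, MSI2 binding at these sites cannot be told apart from background that repeats between libraries.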

How the data were processed

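CLIP-seq peak lists for MSI2 in NB4 cells were used, 1 for each of 2 replicates. The submitters' processing notes name STAR 2.3.0e, Bowtie 1.0.0 and cutadapt, and the genome build hg19. Peaks were called for each library separately, and the sources used here do not name the caller. Peak p-values were taken as deposited by the authors and lay under 0.05 throughout. The tally, a number in the deposited peak names, was used as it stands. The 8 genes were found by gene ID. Members and lists were chosen with earlier results of these data known. Overlap, merging (gaps up to 50 nt), shares with Wilson intervals and log2 ratios of tally shares with exact conditional intervals were computed with Python 3.11.15, SciPy 1.17.1, pandas 2.3.3 and NumPy 2.4.6, drawn with matplotlib 3.10.9, and checked on simulated peaks. With 1 group and no control, no test between conditions was made. All members were named, with every peak of tally 10 or more. A list of 20 related genes is not analysed here, since no table used here paired their symbols with gene IDs. Alternatives covered overlap, stricter lists, merging, repeated intervals, peaks in place of tallies, and single replicates.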

Additional observations from a re-analysis of the deposited data

How the results depend on the processing

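Of 80 recomputed values, 61 stayed within a margin, which was the 95% interval for shares and ratios, 1.5 times for counts and 1 SD over the replicates for positions. Some of these outcomes were fixed in advance, so the count does not measure robustness. HMGN2 and H3F3A, each listed in 1 replicate, could have no shared peak under any setting. The replicate 2 position could only fall outside its margin. The number of genes with a shared peak was 5, and 4 with the strongest 10% of each list by the authors' p. A partner then also had to be in the cut list of the other replicate. Under that cut 10 of 10 replicate 1 peaks (100%) and 9 of 10 replicate 2 peaks (90.0%) were shared. The shares over all gene IDs were 55.1% and 57.1%. Merging peaks within 50 nt left 13 peaks in replicate 1, of which 61.5% were shared, and 20 in replicate 2, of which 40% were, against 36.2% and 39.1% over all gene IDs. Leaving out 1 replicate left 21 to 28 of the 49 peaks, and no peak can then be shared. The genes' share was 0.0810% and 0.111% when counted in peaks, and 0.122% and 0.138% of tallies without HMGB2, an alternative chosen after seeing the data. Relative position ran from 0 at the 5' to 1 at the 3' end of a gene's listed span. Its median over shared peaks was 0.73 in replicate 1, 0.83 in replicate 1 weighted by tally, and 0.75 in replicate 2. Over all peaks of replicate 1 it was 0.74. Shared peaks were 15 of those 21, so these values cannot show whether they sat apart from the rest. Joining peaks into sites was also chosen after seeing the data. At 50% reciprocal overlap HMGA1 had 1 shared peak and H3F3B 2. No paired analysis was possible because there is only 1 group. Tallies under 10 limit most single peaks.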
